A study of Homo sapiens with 18 samples.

Results

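Gene expression was followed in USB1 mutant cells as they passed from hematopoietic progenitors at day 16 (D16) to mature blood cells at day 30 (D30) of differentiation from human embryonic stem cells. The comparison took every USB1 mutant library of these days, 3 at D16 and 3 at D30, which are 6 of the 18 RNA-seq libraries of the series, and joined the count tables of the days by gene identifier. Of 35168 genes listed, 14797 had enough counts to be tested. The other libraries were wild type (WT) and mutant cells at D0 and WT cells at D16 and D30. All cells came from H1, an established human embryonic stem cell line, and the mutant carries a frameshift deletion in USB1. Per the study the D16 cells were CD34+/CD45+ progenitors. The sources used here do not state how these were isolated, which culture gave the D30 RNA or how many mutant clones were used.

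USB1 encodes an RNA exonuclease that trims the 3′ end of U6 snRNA and, in the study, is examined for its action on the tails of microRNAs, and its loss causes poikiloderma with neutropenia, a bone marrow failure syndrome. As progenitors become blood they lose CD34 and the regulators of self-renewal, leave the cell cycle and build the products of their lineage: hemoglobin and a spectrin skeleton in red cells, granule proteins in neutrophils and eosinophils, lysosomes and scavenger receptors in macrophages. The early granule proteins of neutrophils, such as myeloperoxidase, are made by promyelocytes and their transcripts are switched off as the cells mature.

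Levels are given as CPM, the reads of a gene scaled to the size of its library, in the order of replicates 1, 2 and 3. Parentheses hold the change of D30 over D16 on the log2 scale ± standard error, followed by padj, which is the p of the quasi-likelihood test in edgeR after Benjamini-Hochberg adjustment across the tested genes. A gene was called at padj under 0.1, the threshold of the study. Total counts were 12258254 to 14056104 per mutant library at D16, and 10458374, 12312736 and 4125125 at D30, so that D30 replicate 3 was the shallowest. Globins took 0.0949 to 0.156% of counts at D16 and 8.83, 5.41 and 6.69% at D30. The log2 CPM of libraries correlated (Pearson, across genes) at 0.9865 to 0.9884 within D16, at 0.9571 to 0.9777 within D30 and at 0.7793 to 0.8395 between the days, so the D30 libraries were the more variable. The days were deposited as separate tables, and day cannot be told apart from any batch that went with it. In bulk RNA, a change in the number of cells of one type and a change in RNA per cell cannot be told apart.

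Most of the transcriptome moved. Of the tested genes 10247 were called (69.3%), 5110 higher at D30 (34.5%) and 5137 lower (34.7%). By over 2-fold 6204 changed (41.9%), of which 3243 were higher (21.9%) and 2961 lower (20%), and the median log2 fold change of all tested genes was −0.01. These shares are the background for every count below. The scaling of libraries (TMM) takes most genes as unchanged, so the even split and the median near 0 follow in part from it. Directions are thus relative to the bulk of the genes, and RNA per cell was not measured. With transcript lengths as offsets 54.3% of the called genes were higher. The 3 libraries of one day lay wholly on one side of those of the other day for 10224 genes (69.1%). Most list members named below were picked by padj in these same data, so their separation between the days adds no support.

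**Figure D1:**
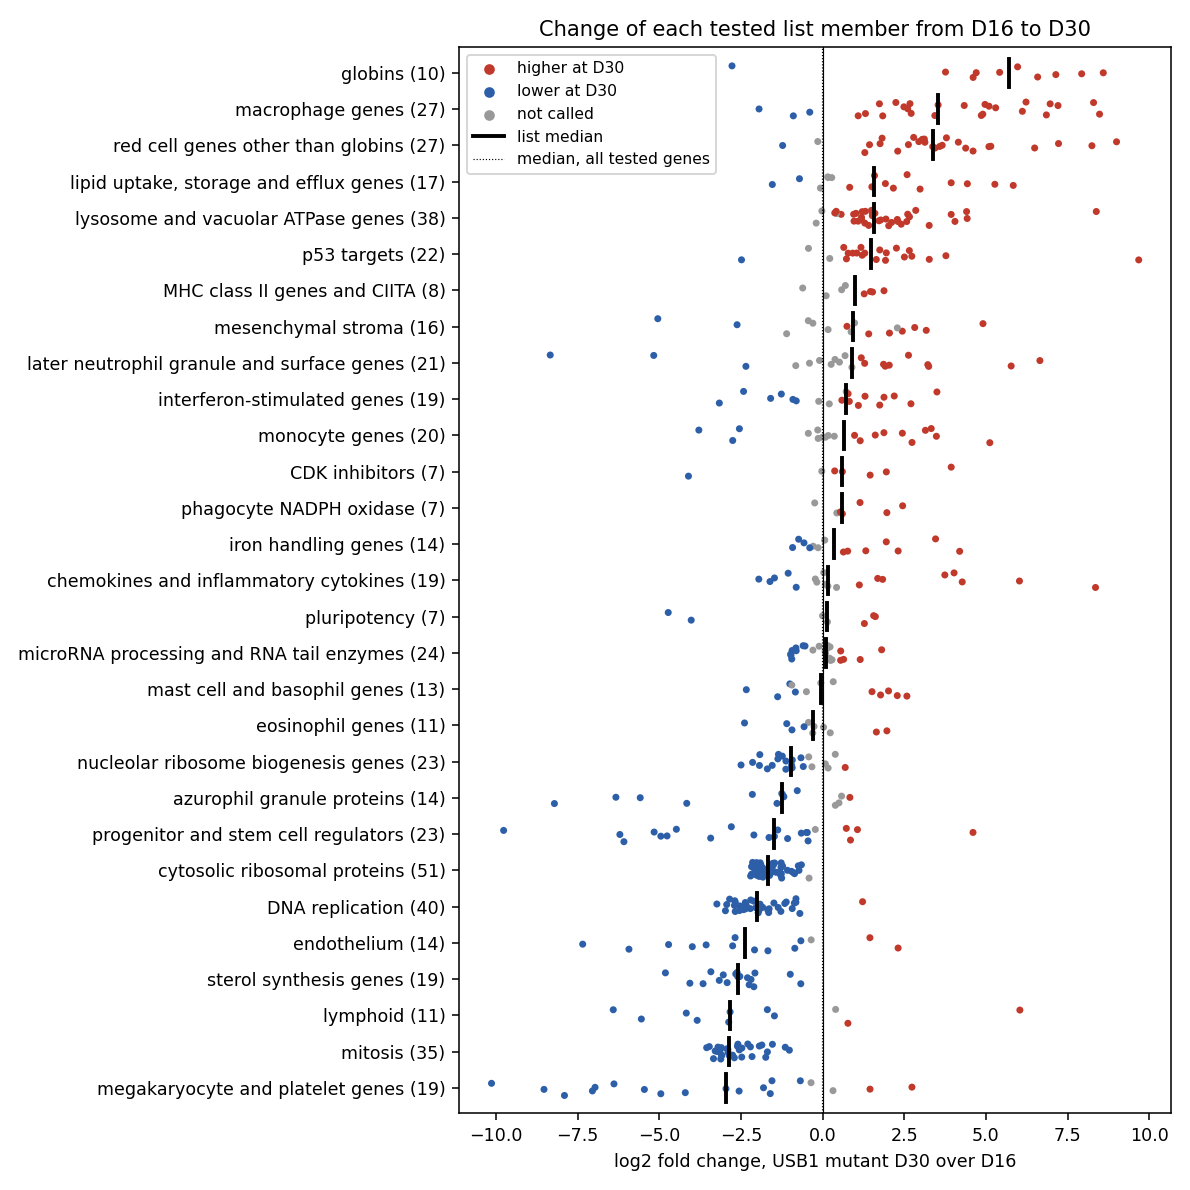
Each point is a tested member of a gene list (number tested in brackets), placed by its log2 fold change of D30 over D16 in USB1 mutant cells on the x axis, with lists ordered by their median (thick bar). Red points were called higher, blue points lower and grey points were not called; globins lie farthest to the right at a median of 5.7 and megakaryocyte genes farthest to the left at −2.96.

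USB1 itself was not called. USB1 (ENSG00000103005) measured 54.7, 46.3 and 56.5 CPM at D16 and 41.2, 61.5 and 64.4 CPM at D30 (0.08 ± 0.19, padj = 0.741), and the days overlapped. Its reads overlap an exon of ZNF319 on the opposite strand, and a frameshift need not alter the amount of mRNA, so its level is no check of genotype.

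The largest changes were ranked among called genes averaging 10 CPM or more in these 6 libraries whose days did not overlap. The largest falls included 3 members of the platelet list. GP9, a subunit of the platelet receptor for von Willebrand factor, measured 50.4, 56.6 and 62.3 CPM at D16 and 0, 0 and 0.262 CPM at D30 (−10.14 ± 0.46, padj = 4.57e-07). MMRN1, a platelet granule protein, went from 218, 184 and 179 to 0.399, 0.327 and 1.31 CPM (−8.53 ± 0.32, padj = 2.18e-07) and PPBP, a platelet chemokine, from 161, 149 and 141 to 0.598, 0.572 and 0.786 CPM (−7.91 ± 0.22, padj = 5.85e-08). All 3 were near 0 in every D30 library. The other 7 of the 10 largest falls were ELANE (neutrophil elastase, −8.21), DIPK1B (−9.42), CPXM1 (−8.78), CMTM5 (−8.01), GUCY1B1 (a subunit of soluble guanylate cyclase, −7.96), F2RL2 (a thrombin receptor, −7.25) and COL2A1 (a cartilage collagen, −7.16).

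By the same rule, the largest rises included members of the macrophage, lysosome, globin, red cell and p53 target lists. GDF15, a secreted protein induced by cell stress and a p53 target, measured 1.9, 1.99 and 2.16 CPM at D16 and 2151, 1255 and 1596 CPM at D30 (9.68 ± 0.31, padj = 1.11e-07). SLC4A1, the anion exchanger band 3 of the red cell membrane, measured 3.32, 3.98 and 3.92 CPM at D16 and 3077, 1465 and 1229 CPM at D30 (9.0 ± 0.44, padj = 5.54e-07). CHIT1, a chitinase secreted by lipid-laden macrophages, rose from 0.158, 0.919 and 1.76 to 258, 420.5 and 379 CPM (8.48 ± 0.48, padj = 1.02e-06). For each of these genes the lowest D30 library was far above the highest D16 library, but separation of the days was a condition of the ranking. DCSTAMP, a membrane protein needed for macrophages to fuse, rose by 8.97 on the log2 scale, ATP6V0D2, a vacuolar ATPase subunit of osteoclasts and macrophages, by 8.38 and HS3ST2, a heparan sulfate sulfotransferase, by 10.61. RUNDC3A rose from 1.42, 1.53 and 1.01 to 685, 542 and 671 CPM (8.9 ± 0.25, padj = 5.85e-08), ESPN, an actin bundler, by 9.04 (an exon overlaps TNFRSF25 on the opposite strand) and HBA2, an alpha globin, by 8.59. SLC27A3, a fatty acid transport protein, had 0 counts in every D16 library and 36, 18.4 and 29.3 CPM at D30. This is at least 361-fold higher against a floor of 3 counts over the D16 group. In WT cells SLC27A3 averaged 16.2 CPM at D16 and 81.5 CPM at D30, so its absence at D16 was not shared by WT cells.

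Most progenitor genes fell. Of 23 tested stem and progenitor regulators 4 were higher and 18 lower (median −1.48), and 14 fell by over 2-fold. CD34, a surface marker by which the study defines the D16 cells, measured 127, 148 and 154 CPM at D16 and 18.6, 12.5 and 7.33 CPM at D30 (−3.43 ± 0.27, padj = 6.05e-06). Because the D16 cells are defined by CD34, its fall is no independent measure of maturation. MEIS1, a homeobox partner of HOX proteins in stem cells, measured 92.3, 89.5 and 101 CPM at D16 and 3.79, 2.78 and 4.19 CPM at D30 (−4.77 ± 0.20, padj = 3.54e-07). MYCN (−6.21 ± 0.31, padj = 5.57e-07) and MECOM (−4.48 ± 0.32, padj = 3.27e-06), both transcription factors that maintain early progenitors, fell to under 2 CPM in every D30 library. ERG, an ETS factor of stem cells, was at 0 counts in all D30 libraries, at least 86.4-fold lower. CD38, a surface enzyme gained on commitment, went the other way, from 0.395, 0.536 and 0.811 to 3.19, 19.8 and 21.5 CPM (4.6 ± 0.70, padj = 3.14e-04), with replicate 1 lowest at D30, and so did LMO2, a bridging factor of blood and red cell transcription complexes (0.85 ± 0.17, padj = 0.00184). HOXA7, HOXA9, HOXA10 and PROM1 were below the count filter on both days.

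Regulators of lineage fate went different ways. PTPRC, which encodes the pan-leukocyte phosphatase CD45, measured 565, 455 and 407 CPM at D16 and 238, 416 and 439 CPM at D30 (−0.39 ± 0.24, padj = 0.182) and was not called, though it was called lower with transcript lengths as offsets (padj = 0.0441) and without D30 replicate 3 (padj = 0.0907). The study defines the D16 cells by CD45 as well, so the D16 level of PTPRC is no independent measure either. GATA1, the master factor of red cells, megakaryocytes, eosinophils and mast cells, measured 94.8, 118 and 119 CPM at D16 and 134, 86.4 and 98.5 CPM at D30 (−0.06 ± 0.19, padj = 0.808), and the days overlapped. SPI1 (PU.1), the factor of macrophage and granulocyte fate, rose from 143, 153 and 177 to 429.6, 452 and 593 CPM (1.64 ± 0.18, padj = 3.94e-05). CEBPA, which drives the granulocyte and monocyte fate, fell (−0.57 ± 0.18, padj = 0.017), as did RUNX2 (−1.23 ± 0.37, padj = 0.016) and RUNX1, a core binding factor needed to form blood stem cells (−0.47 ± 0.15, padj = 0.0222). The RUNX1 fall came to −0.003 (padj = 0.987) with transcript lengths as offsets. CEBPE, required for late granulocytes, measured 13.7, 25.7 and 19.8 CPM at D16 and 18.4, 34 and 36.9 CPM at D30 (0.58 ± 0.29, padj = 0.111) and was not called, though it was called higher under 6 alternatives, among them without D30 replicate 1 (0.82, padj = 0.00999). KIT, the stem cell factor receptor of progenitors and mast cells, measured 299, 255 and 227 CPM at D16 and 224, 480.0 and 589 CPM at D30 (0.73 ± 0.30, padj = 0.0568). Its call was lost in 8 of 17 alternatives, and D30 replicate 1 lay below the other D30 libraries.

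**Figure D2:**
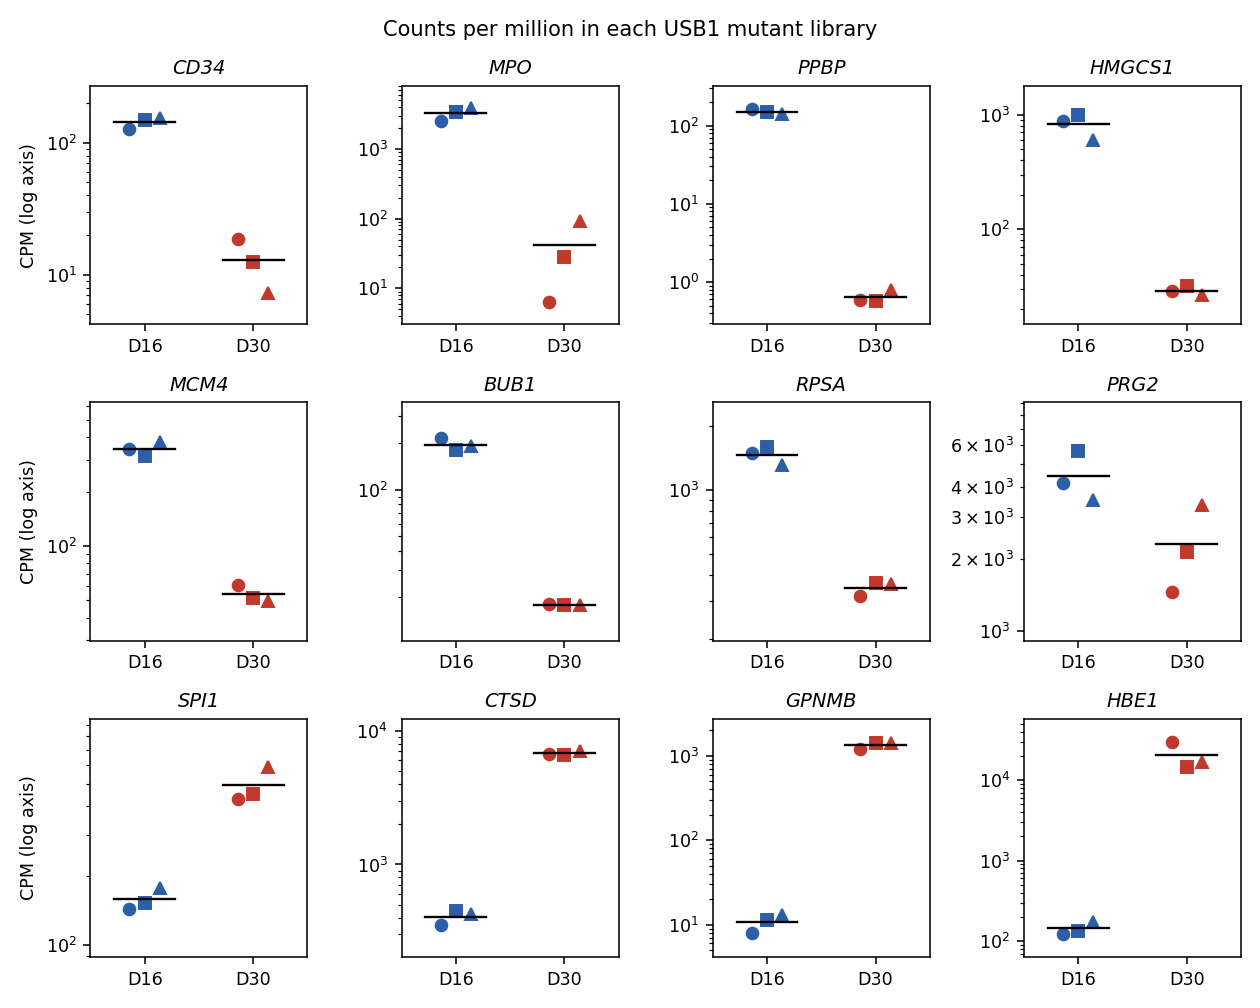
CPM (log axis, scale set for each gene) of 12 genes in each USB1 mutant library at D16 (blue) and D30 (red), with circles, squares and triangles for replicates 1, 2 and 3 and a line at the mean of 3. MPO fell in every library but was spread at D30 (6.28, 28.4 and 91.4 CPM), whereas CTSD and BUB1 were tight on both days.

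Most early neutrophil granule transcripts fell, and later ones went different ways. In the list of azurophil granule proteins, the products of promyelocytes, 1 of 14 tested members was higher and 10 were lower (median −1.24). MPO, myeloperoxidase, measured 2517, 3357 and 3875 CPM at D16 and 6.28, 28.4 and 91.4 CPM at D30 (−6.33 ± 0.81, padj = 1.10e-04), with replicate 1 lowest and replicate 3 highest at D30. ELANE, the elastase whose mutation causes congenital neutropenia, measured 29.8, 68.2 and 48.6 CPM at D16 and 0, 0.245 and 0.262 CPM at D30 (−8.21 ± 0.56, padj = 2.53e-06), and PRTN3, proteinase 3, 198, 320.5 and 252 CPM at D16 and 0.897, 4.0 and 14.9 CPM at D30 (−5.59 ± 0.67, padj = 6.91e-05). MS4A3, a membrane protein of granulocyte progenitors, fell as well (−4.16 ± 0.32, padj = 5.04e-06). LYZ, lysozyme, was the member called higher (0.83 ± 0.34, padj = 0.0524), a call lost in 5 of 17 alternatives (padj up to 0.195) and made with overlapping days. Without D30 replicate 1, 4 members of this list were called higher, and without D16 replicate 1, D30 replicate 2 or D30 replicate 3 none was. CTSG, BPI and CEBPE were not called.

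Of 21 tested later neutrophil granule and surface genes 10 were higher and 3 lower (median 0.90). MMP9, gelatinase B, rose from 24.7, 21.1 and 23.2 to 266, 196 and 181 CPM (3.22 ± 0.19, padj = 1.28e-06). CEACAM8, the CD66b marker of granulocytes, measured 1.26, 2.07 and 1.83 CPM at D16 and 6.58, 16.3 and 27.8 CPM at D30 (3.25 ± 0.50, padj = 3.26e-04), and CEACAM1, a related adhesion receptor, 0.869, 1.15 and 0.947 CPM at D16 and 28.3, 128 and 147 CPM at D30 (6.65 ± 0.64, padj = 1.74e-05). For both adhesion genes the days did not overlap, and replicate 1 was again the lowest at D30. The collagenase MMP8 rose from 0, 0.0766 and 0.135 to 3.29, 5.06 and 5.76 CPM (5.77 ± 0.63, padj = 4.06e-05). OLFM4, a granule glycoprotein, was at 0 counts in all D30 libraries, at least 32.2-fold lower than at D16, and LCN2, a siderophore-binding protein, fell from 1.42, 2.45 and 1.62 to 0, 0 and 0.262 CPM (−5.17 ± 0.91, padj = 7.81e-04). The count of members called lower came to 5 without D30 replicate 3. ALPL, CD177, CRISP3 and PGLYRP1 were below the count filter.

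Eosinophil genes moved in both directions. PRG2, the major basic protein of the eosinophil granule, was among the most abundant transcripts and measured 4170.4, 5657 and 3539.7 CPM at D16 and 1458, 2146 and 3368 CPM at D30 (−0.94 ± 0.31, padj = 0.0222), with D30 replicate 3 just under the lowest D16 library. CLC, the Charcot-Leyden crystal protein, measured 2306, 2176 and 1143 CPM at D16 and 456, 916 and 1255 CPM at D30 (−1.1 ± 0.37, padj = 0.0241), and the days overlapped. IL5RA, the interleukin-5 receptor of eosinophils, fell (−2.39 ± 0.28, padj = 6.05e-05), while ALOX15, a lipoxygenase (1.97 ± 0.31, padj = 3.74e-04), and ADGRE1, an adhesion receptor of human eosinophils (1.65 ± 0.24, padj = 2.65e-04), rose. In all, 2 of 11 tested eosinophil genes were higher and 4 lower (median −0.30), with 7 lower without D30 replicate 3, the library with the highest D30 levels of PRG2, CLC and IL5RA. Of all tested genes 34.5% were higher and 34.7% lower, so the count of lower members is near the background. The PRG2 call was lost in the fit over 18 libraries (padj = 0.108).

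Among 13 tested mast cell and basophil genes 5 were higher and 4 lower (median −0.06). Both counts are near the background, as 34.5% of all tested genes were higher and 34.7% lower. The mast cell tryptases TPSB2 and TPSAB1, near-identical copies whose reads may be shared, rose from 95.7, 111 and 70.3 to 214, 217 and 361 CPM (1.51 ± 0.24, padj = 4.67e-04) and from 36.7, 51.9 and 27.2 to 118, 90.9 and 190.1 CPM (1.77 ± 0.30, padj = 6.33e-04). MS4A2, a chain of the high-affinity IgE receptor, measured 1.66, 2.68 and 2.1 CPM at D16 and 8.47, 15.3 and 15.2 CPM at D30 (2.58 ± 0.34, padj = 1.24e-04), and ENPP3, the basophil marker CD203c, 2.84, 2.6 and 1.56 CPM at D16 and 11.8, 10.2 and 12.3 CPM at D30 (2.29 ± 0.31, padj = 1.47e-04). Both were low on either day but did not overlap. HDC, which makes histamine, fell (−1.01 ± 0.23, padj = 0.00394), and so did IL1RL1, the interleukin-33 receptor (−1.38 ± 0.34, padj = 0.00519).

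Macrophage genes rose together. Of 27 tested members 24 were higher, each by over 2-fold, and 3 were lower (median 3.54), and the summed level of the list went from 1146 to 1432 CPM at D16 to 9181 to 12847 CPM at D30. GPNMB, a glycoprotein of lipid-loaded and degradative macrophages, measured 7.98, 11.3 and 12.9 CPM at D16 and 1207, 1419.8 and 1419 CPM at D30 (6.97 ± 0.25, padj = 2.00e-07). ACP5, tartrate-resistant acid phosphatase, measured 10.3, 17.5 and 19.1 CPM at D16 and 604, 618 and 633 CPM at D30 (5.3 ± 0.25, padj = 4.69e-07) (an exon overlaps ZNF627 on the opposite strand). LGMN, the lysosomal protease legumain, rose (4.34 ± 0.22, padj = 5.57e-07), and VSIG4, a complement receptor of resident macrophages, went from 2.21, 2.99 and 1.76 to 107, 217 and 158 CPM (6.12 ± 0.33, padj = 7.63e-07). In these 4 genes every D30 library lay above every D16 library. Lower were SLC40A1, the iron exporter ferroportin (−0.39, named after its value was seen), F13A1, a coagulation factor subunit of monocytes and macrophages (−1.95 ± 0.34, padj = 7.03e-04), and AXL, a receptor for dying cells (−0.90 ± 0.32, padj = 0.0321, lost in 2 of 17 alternatives with padj up to 0.275 and overlapping between the days). With transcript lengths as offsets 1 of the 3 was called lower.

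Monocyte genes split. Of 20 tested, 10 were higher and 3 lower (median 0.67). The integrin chains ITGAX (CD11c) and ITGAM (CD11b) measured 18.5, 18.5 and 11 CPM at D16 and 614, 590.4 and 462 CPM at D30 (5.12 ± 0.25, padj = 5.57e-07) and 74.2, 67.5 and 64 CPM at D16 and 507, 721 and 594 CPM at D30 (3.15 ± 0.18, padj = 1.23e-06). FCGR1A, the high-affinity IgG receptor, rose (2.74 ± 0.22, padj = 5.67e-06, an exon overlapping H2BC18). CX3CR1 and CCR2, the chemokine receptors that mark circulating monocytes, fell (−3.79 ± 0.26, padj = 2.45e-06 and −2.75 ± 0.43, padj = 3.77e-04), with every D30 library under 3 CPM. The third member called lower was VCAN, a proteoglycan of classical monocytes, named here after its value was seen.

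MHC class II genes moved less clearly. HLA-DRB1 measured 12.6, 13.6 and 22.9 CPM at D16 and 59.5, 22.1 and 37.2 CPM at D30 (1.27 ± 0.35, padj = 0.01) and CD74, the invariant chain that guards these molecules, 135, 163 and 248 CPM at D16 and 898, 225 and 450.4 CPM at D30 (1.53 ± 0.43, padj = 0.0106), and for both the days overlapped, with replicate 1 highest at D30. Of 8 tested members 4 were higher and none was lower. Called higher were also HLA-DRB5 (1.88 ± 0.52, padj = 0.0102) and HLA-DQA1 (1.46 ± 0.54, padj = 0.0356, lost in 6 of 17 alternatives with padj up to 0.195). Without D30 replicate 1, 3 members were called lower, and without D16 replicate 2, 1 was. These genes have close copies, so their counts are uncertain, and 4 members were below the filter. Of the 7 tested subunits and regulators of the phagocyte NADPH oxidase, which makes superoxide, 5 were higher and none was lower. CYBB, its catalytic chain, measured 378, 364 and 404 CPM at D16 and 894, 1978 and 1606 CPM at D30 (1.97 ± 0.27, padj = 1.58e-04), and NCF1 rose too (2.45 ± 0.26, padj = 2.97e-05). Without D30 replicate 3, 1 member was called lower.

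Lysosomal genes rose as a broad set. Of 38 tested genes for lysosomal enzymes, membrane proteins and the vacuolar ATPase, 35 were higher and none was lower, 30 of them by over 2-fold (median 1.56), and between 33 and 36 were called higher under every alternative. CTSD, the aspartic protease cathepsin D, measured 353, 448 and 423 CPM at D16 and 6679, 6582 and 7045 CPM at D30 (4.05 ± 0.21, padj = 6.12e-07), and became one of the most abundant transcripts. CTSB and CTSL, cysteine proteases, measured 286, 332 and 297 CPM at D16 and 2584, 3189.8 and 3003 CPM at D30 (3.26 ± 0.19, padj = 1.10e-06) and 26.7, 25.8 and 25.2 CPM at D16 and 566, 606 and 478 CPM at D30 (4.41 ± 0.17, padj = 2.56e-07). CTSK, a collagenase of osteoclasts and macrophages, rose from 3.63, 2.68 and 2.3 to 62.6, 60.2 and 62.3 CPM (4.43 ± 0.21, padj = 4.69e-07). All D30 libraries of the 4 cathepsins were above all D16 libraries.

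Promoter windows of RefSeq (GRCh38.p14, 250 bases before to 50 after the start) were searched for the letters of 4 known elements on both strands. The CLEAR element, bound by TFEB and its relatives, was searched as TCACGTGA and found in 5 of the 25 lysosomal promoters on hand, against 283 of 27305 promoters in all (1.04%) and 1.86% of the promoters of tested genes. The matches are shown because these genes moved together; capitals mark the element, and a match is a description of the sequence only.
LAMP1 (chr13:113297190-113297237, + strand): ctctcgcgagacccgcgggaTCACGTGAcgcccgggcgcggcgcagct
CTSA (chr20:45891289-45891334, + strand): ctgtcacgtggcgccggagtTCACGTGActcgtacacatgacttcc
MCOLN1 (chr19:7522589-7522623, + strand): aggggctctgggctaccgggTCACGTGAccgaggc
ATP6V0D1 (chr16:67481190-67481237, - strand): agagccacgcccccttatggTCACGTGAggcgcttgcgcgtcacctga
LAMP1, a major lysosomal membrane protein, CTSA, a protective carboxypeptidase, MCOLN1, a lysosomal calcium channel, and ATP6V0D1, a vacuolar ATPase subunit, were each called higher at D30. The last match in the MCOLN1 window lies 15 bases before the start, and the LAMP1 match 29 bases before it.

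Genes for lipid handling and for cholesterol synthesis moved in opposite directions. Of 17 tested genes of lipid uptake, storage and efflux 11 were higher and 2 lower (median 1.59). ABCA1, which exports cholesterol, measured 12.4, 13.1 and 13.1 CPM at D16 and 255, 333 and 245 CPM at D30 (4.43 ± 0.18, padj = 3.19e-07), and LPL, lipoprotein lipase, 4.58, 3.06 and 3.45 CPM at D16 and 98.5, 218 and 112 CPM at D30 (5.27 ± 0.35, padj = 2.34e-06). Both were higher in every D30 library. LIPA, the lysosomal lipase, rose from 98.7, 89.8 and 71.3 to 912, 1687 and 1379 CPM (3.94 ± 0.26, padj = 2.43e-06), though its exons overlap IFIT2 and IFIT3. MYLIP, which degrades the LDL receptor, rose (2.59 ± 0.17, padj = 2.49e-06), whereas PLIN2, the coat protein of lipid droplets, fell (−1.54 ± 0.27, padj = 8.21e-04), and ACAT1, a mitochondrial thiolase, fell by 0.71.

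All 19 tested sterol synthesis genes were lower, 17 by over 2-fold (median −2.6), and 18 or 19 were lower under every alternative. HMGCS1, the synthase that feeds the pathway, measured 874, 993 and 604 CPM at D16 and 28.9, 32 and 26.4 CPM at D30 (−4.82 ± 0.24, padj = 5.38e-07). DHCR7, its last enzyme, measured 207, 277 and 257 CPM at D16 and 13.8, 12.4 and 19.1 CPM at D30 (−4.07 ± 0.21, padj = 7.00e-07), and INSIG1, the sterol-regulated retention protein, 264, 291 and 251 CPM at D16 and 35.9, 28.1 and 34 CPM at D30 (−3.04 ± 0.16, padj = 7.79e-07). CYP51A1, lanosterol demethylase, fell by 2.92. The summed level of the 19 genes was 5232 to 6407 CPM in the D16 libraries and 879 to 1022 CPM in the D30 libraries.

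Iron storage rose. FTL and FTH1, the light and heavy chains of ferritin, measured 2409.7, 2841 and 2693 CPM at D16 and 7909, 9526 and 13236 CPM at D30 (1.95 ± 0.24, padj = 8.33e-05) and 631, 632 and 629 CPM at D16 and 6962, 5666 and 8169 CPM at D30 (3.46 ± 0.22, padj = 1.62e-06), although an exon of FTH1 overlaps BEST1. HMOX1, which frees iron from heme, measured 35.5, 43.6 and 46.7 CPM at D16 and 578, 729 and 999 CPM at D30 (4.2 ± 0.24, padj = 1.17e-06). In each the D30 libraries lay above every D16 library. SLC11A2, an importer of divalent metal, rose (1.32 ± 0.14, padj = 3.75e-05), and FLVCR1, a transporter linked to heme and choline, fell (−0.92 ± 0.22, padj = 0.00459), as did IREB2, which senses iron (−0.74 ± 0.15, padj = 0.00231, but −0.20 and padj = 0.285 with transcript lengths as offsets). In all, 7 of 14 tested iron genes were higher and 4 lower (2 with lengths).

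Globins had the highest median of the lists. Of 10 tested, 9 were higher and 1 lower (median 5.7), and their summed level went from 919 to 1481 CPM to 54425 to 92015 CPM. HBE1, embryonic epsilon globin, measured 124, 133 and 173 CPM at D16 and 29421, 14572 and 16702 CPM at D30 (7.14 ± 0.38, padj = 7.61e-07). HBB, adult beta globin, measured 2.68, 3.22 and 4.87 CPM at D16 and 283, 378 and 384 CPM at D30 (6.58 ± 0.27, padj = 3.09e-07), and the minor alpha-like HBM and HBQ1 rose by 5.97 and 5.42. HBD, delta globin, was the exception, at 113, 137 and 96.6 CPM at D16 and 17.6, 16.7 and 16.2 CPM at D30 (−2.78 ± 0.18, padj = 1.96e-06). Replicate 1 had the highest D30 level of HBE1 and of HBA2.

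Globins were also compared per length, in the TPM (transcript levels corrected for length and library size) given by the authors. Beta-like globin transcripts were mostly embryonic and fetal on both days. HBE1 made up 13.8 to 14.2% of beta-like globin TPM at D16 and 59.4, 45.0 and 48.0% at D30. The fetal pair HBG1 and HBG2, summed because their sequences are nearly the same, went from 70.6 to 77.8% to 40.0, 53.8 and 50.8%. Adult HBB went from 0.339 to 0.425% at D16 to 0.585 to 1.17% at D30, and HBD went from 7.94 to 15.0% to under 0.1% in each library. Among alpha-like globins, embryonic HBZ went from 24.0, 30.5 and 31.1% of TPM to 2.96, 1.45 and 1.1%. The alpha-like pool thus held a smaller embryonic share at D30 and the beta-like pool a larger one, in all 3 libraries.

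**Figure D3:**
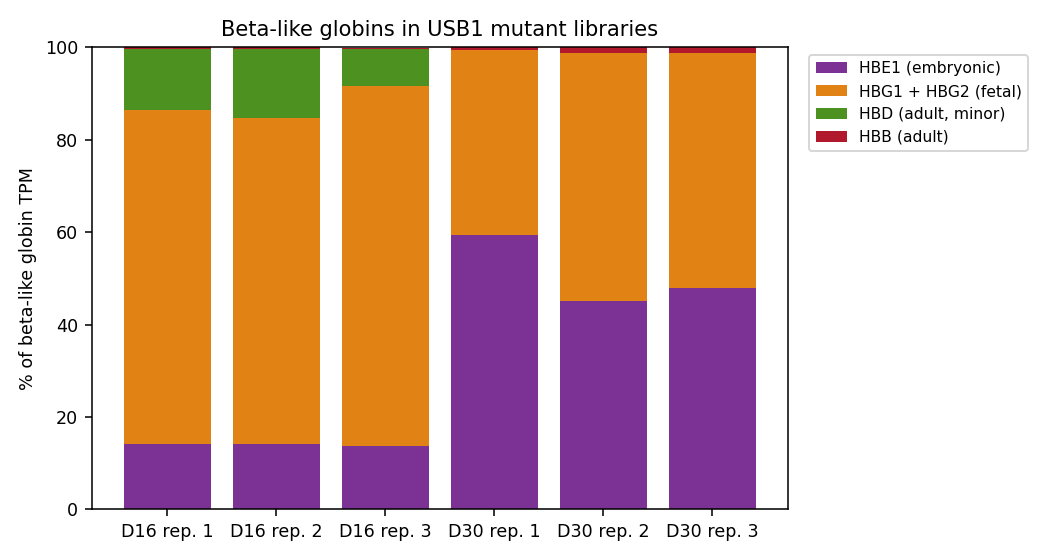
Stacked bars give the share (%) of each beta-like globin in their summed TPM, 1 bar per USB1 mutant library, for D16 and D30. HBE1 took 13.8 to 14.2% at D16 and 45.0 to 59.4% at D30, and HBB no more than 1.17% in any library.

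The rest of the red cell program followed the globins. Of 27 tested members 25 were higher, all by over 2-fold, and 1 was lower (median 3.37). AHSP, the chaperone of free alpha globin, measured 0.632, 0.996 and 1.08 CPM at D16 and 182, 91.9 and 139 CPM at D30 (7.22 ± 0.34, padj = 4.69e-07). GYPC, glycophorin C, rose from 31.4, 40.7 and 53 to 605, 339.6 and 557 CPM (3.58 ± 0.28, padj = 4.95e-06) and TRIM58, a ubiquitin ligase of late erythroblasts, from 23.8, 26.7 and 31.4 to 518, 273 and 246 CPM (3.66 ± 0.30, padj = 6.39e-06). RHAG, the Rh-associated glycoprotein, was the member called lower, at 130.0, 122 and 126 CPM at D16 and 83.6, 45.1 and 31.2 CPM at D30 (−1.23 ± 0.29, padj = 0.0046). TSPO2, a porphyrin-binding protein of erythroblasts, was at 0 counts in all D16 libraries and at least 49.7-fold higher at D30. Under every alternative 24 or 25 members were called higher, and without D30 replicate 1, the library with the most globin, 2 were called lower.

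The GATA element, searched as AGATAA, was found in 10 of 20 red cell promoters, against 10.5% of all promoters and 5.57% of those of tested genes. Windows of 4 red cell genes that rose are shown, with the element in capitals (TTATCT where it lies on the other strand). Here too a match is a description of the sequence only.
ALAS2 (chrX:55031079-55031124, - strand): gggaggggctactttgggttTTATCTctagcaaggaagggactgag
EPB42 (chr15:43221054-43221099, - strand): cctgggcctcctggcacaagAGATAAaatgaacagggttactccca
SPTB (chr14:64879924-64879969, - strand): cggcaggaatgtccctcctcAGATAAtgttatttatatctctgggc
KEL (chr7:142962400-142962445, - strand): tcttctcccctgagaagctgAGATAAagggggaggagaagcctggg
These encode the erythroid enzyme that starts heme synthesis (ALAS2), 2 proteins of the membrane skeleton (EPB42 and SPTB) and a blood group antigen (KEL).

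Megakaryocyte and platelet genes fell. Of 19 tested, 2 were higher and 15 lower, 14 of these by over 2-fold (median −2.96). Beside GP9, MMRN1 and PPBP above, ITGB3, the beta chain of the platelet fibrinogen receptor, measured 418, 439 and 505 CPM at D16 and 30.1, 19.3 and 24.4 CPM at D30 (−4.21 ± 0.21, padj = 5.57e-07). The 2 that rose were NFE2, a factor shared with red cells, at 136, 172 and 154 CPM at D16 and 569, 312 and 379 CPM at D30 (1.45 ± 0.22, padj = 3.55e-04), and TREML1, a receptor of platelet granules, at 2.05, 3.45 and 3.65 CPM at D16 and 20.2, 23.2 and 17.5 CPM at D30 (2.73 ± 0.27, padj = 2.33e-05). For all 3 the days did not overlap.

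Cell cycle genes fell nearly without exception. Of 40 tested DNA replication genes 39 were lower and 1 higher (median −2.01), and all 35 mitosis genes were lower by over 2-fold (median −2.86), and 35 were called lower under every alternative. MCM4, a subunit of the replicative helicase, measured 346, 316 and 377 CPM at D16 and 60.9, 51.8 and 49.5 CPM at D30 (−2.68 ± 0.16, padj = 1.42e-06), and BUB1, a kinase of the spindle checkpoint, 218, 181 and 191 CPM at D16 and 17.9, 17.6 and 17.5 CPM at D30 (−3.47 ± 0.16, padj = 4.41e-07). KIF11, the motor that separates spindle poles, measured 169, 135 and 159 CPM at D16 and 20.3, 17.9 and 14.4 CPM at D30 (−3.12 ± 0.18, padj = 1.17e-06). In these 3 genes the D30 libraries were close to each other and far below every D16 library. TYMS, thymidylate synthase (−2.85 ± 0.17, padj = 1.42e-06), ORC1 (−2.94 ± 0.18, padj = 1.55e-06), RRM1 (−2.36 ± 0.16, padj = 2.54e-06), KIF20A (−3.1 ± 0.19, padj = 1.42e-06) and CCNA2 (−2.9 ± 0.17, padj = 1.42e-06) fell alike. ORC6, a subunit of the origin recognition complex, was the replication gene that rose, from 83.2, 69.9 and 83 to 210.1, 159 and 182 CPM (1.22 ± 0.16, padj = 1.19e-04). Summed mitosis transcripts went from 4069 to 5145 CPM to 660.0 to 928 CPM.

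E2F sites, searched as TTTGGCGC or TTTCCCGC, were found in 18 of 35 replication promoters (51.4%), against 2.31% of all promoters and 3.5% of those of tested genes. The cell cycle homology region (CHR), searched as TTTGAA, was found in 20 of 29 mitosis promoters (69.0%), against 15.4% and 10.2%. Both elements are known to take part in repressing these genes when cells leave the cycle. Whether they did so here was not tested, and a match is a description of the sequence only. The 6 windows are shown because the replication and mitosis genes fell together, with the element in capitals on either strand. E2F is in the first 3 and CHR in the last 3.
MCM6 (chr2:135876506-135876553, - strand): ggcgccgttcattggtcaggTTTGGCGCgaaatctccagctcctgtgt
PCNA (chr20:5126654-5126701, - strand): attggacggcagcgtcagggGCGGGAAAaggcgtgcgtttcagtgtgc
TYMS (chr18:657594-657641, + strand): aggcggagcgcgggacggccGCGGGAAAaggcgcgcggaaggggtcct
BUB1B (chr15:40161026-40161068, + strand): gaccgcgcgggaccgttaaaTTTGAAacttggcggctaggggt
CCNB2 (chr15:59105097-59105142, + strand): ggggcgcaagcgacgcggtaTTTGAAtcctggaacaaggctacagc
KIF11 (chr10:92593082-92593127, + strand): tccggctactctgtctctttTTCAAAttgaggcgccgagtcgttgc
MCM6 is a helicase subunit, PCNA the sliding clamp, BUB1B a checkpoint kinase and CCNB2 a mitotic cyclin. The E2F letters were in 6.9% of mitosis promoters and the CHR letters in 2.86% of replication promoters. The CHR letters were also in 6 of 15 monocyte promoters (40.0%) and 4 of 7 MHC class II promoters (57.1%). In both of those lists more members were called higher than lower.

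Inhibitors of the cycle and targets of p53 rose. CDKN1A, which encodes p21, measured 141, 137 and 128 CPM at D16 and 508, 514 and 548 CPM at D30 (1.95 ± 0.14, padj = 4.16e-06), and CDKN2B, which encodes p15, 2.92, 3.75 and 4.87 CPM at D16 and 69.9, 45 and 63.6 CPM at D30 (3.94 ± 0.26, padj = 2.04e-06). CDKN2A, which encodes p16 and ARF, rose from 10.03, 9.04 and 7.78 to 23.3, 18.4 and 33 CPM (1.46 ± 0.24, padj = 5.98e-04), and CDKN1B (p27) by 0.60. CDKN1C (p57), found in quiescent stem cells, fell from 51.9, 82.7 and 67.3 to 4.78, 3.76 and 2.62 CPM (−4.11 ± 0.26, padj = 1.78e-06). In all, 5 of 7 tested inhibitors were higher and 1 was lower. Of 22 tested p53 targets 19 were higher and 1 lower (median 1.47). BBC3, which encodes the death protein PUMA, measured 10.7, 13.5 and 13.7 CPM at D16 and 222, 115 and 183 CPM at D30 (3.78 ± 0.26, padj = 2.58e-06), and PHLDA3, an AKT repressor, 8.13, 8.58 and 7.84 CPM at D16 and 55.1, 41.8 and 42.2 CPM at D30 (2.5 ± 0.18, padj = 3.89e-06). CCNG1, cyclin G1, was the target that fell, at 487, 453 and 319 CPM at D16 and 64.2, 90.1 and 70.4 CPM at D30 (−2.49 ± 0.21, padj = 8.74e-06). Without D16 replicate 2, 2 targets were called lower.

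Transcripts of the translation apparatus fell. Of 51 tested cytosolic ribosomal proteins 50 were lower, 44 by over 2-fold, and none was higher (median −1.67). RPSA of the small subunit measured 1493, 1594 and 1319 CPM at D16 and 318, 364 and 363 CPM at D30 (−2.08 ± 0.17, padj = 6.56e-06) and RPL10A of the large subunit 552, 556 and 431 CPM at D16 and 110.4, 109.9 and 128 CPM at D30 (−2.15 ± 0.17, padj = 5.48e-06). Their D30 levels lay within a narrow range in the 3 libraries, and RPS3 and RPS23 fell by 2.02 and 1.95. Processed copies of ribosomal protein genes can share their reads. Of 23 nucleolar genes of ribosome biogenesis 17 were lower and 1 higher (median −0.95). NPM1, nucleophosmin, measured 1101, 999 and 918 CPM at D16 and 152, 182 and 201 CPM at D30 (−2.5 ± 0.18, padj = 3.21e-06), and FBL, the rRNA methyltransferase fibrillarin, 142, 152 and 152 CPM at D16 and 36.4, 28.2 and 36.7 CPM at D30 (−2.15 ± 0.16, padj = 4.20e-06). RRP12, a factor of rRNA export, was the gene called higher (0.69 ± 0.19, padj = 0.0103, lost with transcript lengths as offsets at padj = 0.147). Without D30 replicate 1, 2 members were called higher.

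The enzymes that make microRNAs and add or remove RNA tails moved by small amounts. Of 24 tested 5 were higher and 8 lower, with a median of 0.12. The count of lower members is near the background of 34.7% of all tested genes, and that of higher members is under the 34.5% of all. TENT4B (PAPD5) and TENT4A (PAPD7), the polymerases that oligoadenylate RNA 3′ ends, measured 28.3, 23.7 and 24.5 CPM at D16 and 28.2, 24.3 and 29.3 CPM at D30 (0.09 ± 0.17, padj = 0.655) and 39.3, 45 and 46.1 CPM at D16 and 54.1, 41.4 and 53.7 CPM at D30 (0.19 ± 0.16, padj = 0.337), and neither was called. PARN, a deadenylase, had the largest change of the list and measured 7.9, 7.58 and 7.24 CPM at D16 and 22.2, 33.3 and 23.6 CPM at D30 (1.81 ± 0.21, padj = 6.69e-05), with all D30 libraries above all D16 libraries. AGO1, an Argonaute protein that carries microRNAs, rose (1.15 ± 0.19, padj = 5.13e-04). DROSHA, which cuts microRNA precursors in the nucleus, fell (−0.95 ± 0.19, padj = 0.00172), as did XPO5, which exports them (−0.81 ± 0.16, padj = 0.00183), DIS3, a catalytic subunit of the exosome (−0.98 ± 0.18, padj = 9.38e-04), and LARP7, of the 7SK particle (−0.97 ± 0.20, padj = 0.00185). With transcript lengths as offsets 3 members in place of 8 were lower, DROSHA was no longer called (padj = 0.205) and XPO5 came to 0.07, while DIS3 and LARP7 were still called lower.

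Interferon-stimulated genes went both ways. Of 19 tested, 10 were higher and 6 lower (median 0.72), against 34.5% and 34.7% of all tested genes, so the count of lower members is near the background. RSAD2, an antiviral radical enzyme, measured 4.66, 7.28 and 10.8 CPM at D16 and 135, 65.7 and 56 CPM at D30 (3.5 ± 0.39, padj = 4.57e-05), OAS1, a sensor of double-stranded RNA, 1.5, 3.29 and 2.1 CPM at D16 and 10.7, 17.4 and 17.3 CPM at D30 (2.7 ± 0.35, padj = 1.20e-04), and IFI6, a mitochondrial and ER protein, 10.2, 11.7 and 12.1 CPM at D16 and 28.6, 62.1 and 66 CPM at D30 (2.19 ± 0.29, padj = 1.44e-04). IFITM1 and IFITM3, membrane proteins that block viral entry, fell from 149, 154 and 110.3 to 2.49, 14.4 and 33.3 CPM (−3.16 ± 0.62, padj = 0.00153) and from 33.9, 46.1 and 28.2 to 2.89, 8.41 and 9.69 CPM (−2.42 ± 0.38, padj = 3.66e-04), with replicate 1 lowest at D30 for both. MX1, a GTPase against RNA viruses, measured 4.19, 8.12 and 8.86 CPM at D16 and 6.68, 9.8 and 7.86 CPM at D30 (0.20 ± 0.33, padj = 0.606) and was not called. Without D30 replicate 1, 2 members were called lower, and without D16 replicate 1, D16 replicate 3 or D30 replicate 3, 3 were. Of 19 chemokines and inflammatory cytokines 8 were higher and 5 lower, not far from the shares of all tested genes. CCL13, a chemoattractant of monocytes and eosinophils, measured 0.079, 0.153 and 0.135 CPM at D16 and 35.1, 43.2 and 55 CPM at D30 (8.36 ± 0.34, padj = 3.11e-07), and CCL24, an eosinophil chemoattractant, 0.474, 0.306 and 0.203 CPM at D16 and 16.7, 32.1 and 15.7 CPM at D30 (6.03 ± 0.44, padj = 4.01e-06). CXCL16, CCL22 and OSM changed by 4.27, 4.02 and −1.96. Without D16 replicate 3, in which CXCL2 was highest at 105 CPM, 13 members were called higher and 3 lower.

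Markers of other cells were also read. Of 14 tested endothelial genes, which mark the hemogenic endothelium that gives rise to blood, 11 were lower and 2 higher (median −2.38), and KDR, the VEGF receptor, measured 54.4, 60.8 and 65.5 CPM at D16 and 10.4, 6.45 and 10.5 CPM at D30 (−2.76 ± 0.22, padj = 5.67e-06). TIE1 (−2.09 ± 0.18, padj = 8.74e-06) and ESAM (−4.72 ± 0.30, padj = 1.69e-06) fell too, while FLT1, a VEGF receptor also found on monocytes, rose (1.45 ± 0.18, padj = 7.74e-05). Of 16 tested stromal genes 7 were higher and 2 lower. SPARC, a matrix protein, measured 70.6, 79.5 and 88 CPM at D16 and 371, 519 and 401 CPM at D30 (2.44 ± 0.18, padj = 4.29e-06), and COL6A1, a collagen VI chain, 0.948, 2.22 and 2.16 CPM at D16 and 72.1, 29.4 and 61.8 CPM at D30 (4.91 ± 0.41, padj = 7.94e-06), whereas PDGFRB, the receptor that defines pericytes and fibroblasts, fell to under 1 CPM (−5.05 ± 0.40, padj = 5.81e-06). The stromal list summed to 265 to 288 CPM at D16 and 571 to 943 CPM at D30, with COL3A1 highest in D30 replicate 3 (7.07, 16.5 and 55.2 CPM). The part of stromal cells in any result was not tested. Without D30 replicate 3, 5 stromal members were called lower.

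Of 20 lymphoid markers 9 were below the filter, and 8 of 11 tested were lower. NKG7, a granule protein of killer cells, fell from 79.99, 97.4 and 87.6 to 0.598, 0.98 and 2.09 CPM (−6.41 ± 0.30, padj = 4.69e-07). CD3D of the T cell receptor was at or under 0.1 CPM in every D30 library, whereas CD247, its zeta chain, rose to 4.58, 6.04 and 6.28 CPM (6.04 ± 0.60, padj = 2.07e-05) although its exon overlaps POU2F1. Of the 2 members called higher, 1 was called without D16 replicate 2 or without D30 replicate 2. Of 7 tested pluripotency genes 3 were higher and 2 lower, near the shares of all tested genes (34.5% and 34.7%). DNMT3B, a DNA methyltransferase of early embryonic cells, fell from 118, 103 and 143 to 3.19, 2.86 and 9.95 CPM (−4.73 ± 0.40, padj = 7.98e-06). POU5F1, the stem cell factor OCT4, measured 3.87, 5.29 and 5.41 CPM at D16 and 19.7, 10.2 and 13.1 CPM at D30 (1.56 ± 0.30, padj = 0.0014) (an exon overlaps TCF19), and LIN28A, which blocks let-7 maturation, fell from 65.1, 60.4 and 31.9 to 1.2, 0.98 and 11 CPM (−4.03 ± 0.72, padj = 8.51e-04). NANOG measured 1.18, 1.46 and 3.04 CPM at D16 and 5.18, 3.67 and 5.24 CPM at D30 (1.28 ± 0.42, padj = 0.0228), and came to −0.47 with transcript lengths as offsets.

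The change from D16 to D30 in mutant cells was then set against that in WT cells, in 1 fit of the 12 libraries of both genotypes and days. The difference of the changes (mutant minus WT) is given as log2 ± standard error, and WT and mutant log2 changes come from this fit. Of 15492 genes tested, 2689 differed (17.4%), with the mutant change above the WT change in 1327 (8.57%) and below it in 1362 (8.79%). By over 2-fold 1574 differed (10.2%), 817 above (5.27%) and 757 below (4.89%). Most genes were thus not called as different, and the level at which each genotype started at D16 enters every difference. The count depended on single libraries, with 1553 genes called without WT D16 replicate 1, 1643 without WT D16 replicate 2 and 3400 without WT D16 replicate 3. It came to 1796 without mutant D16 replicate 3 and to 1915 without WT D30 replicate 2. Without mutant D16 replicate 3, 886 genes were below in place of 1362.

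**Figure D4:**
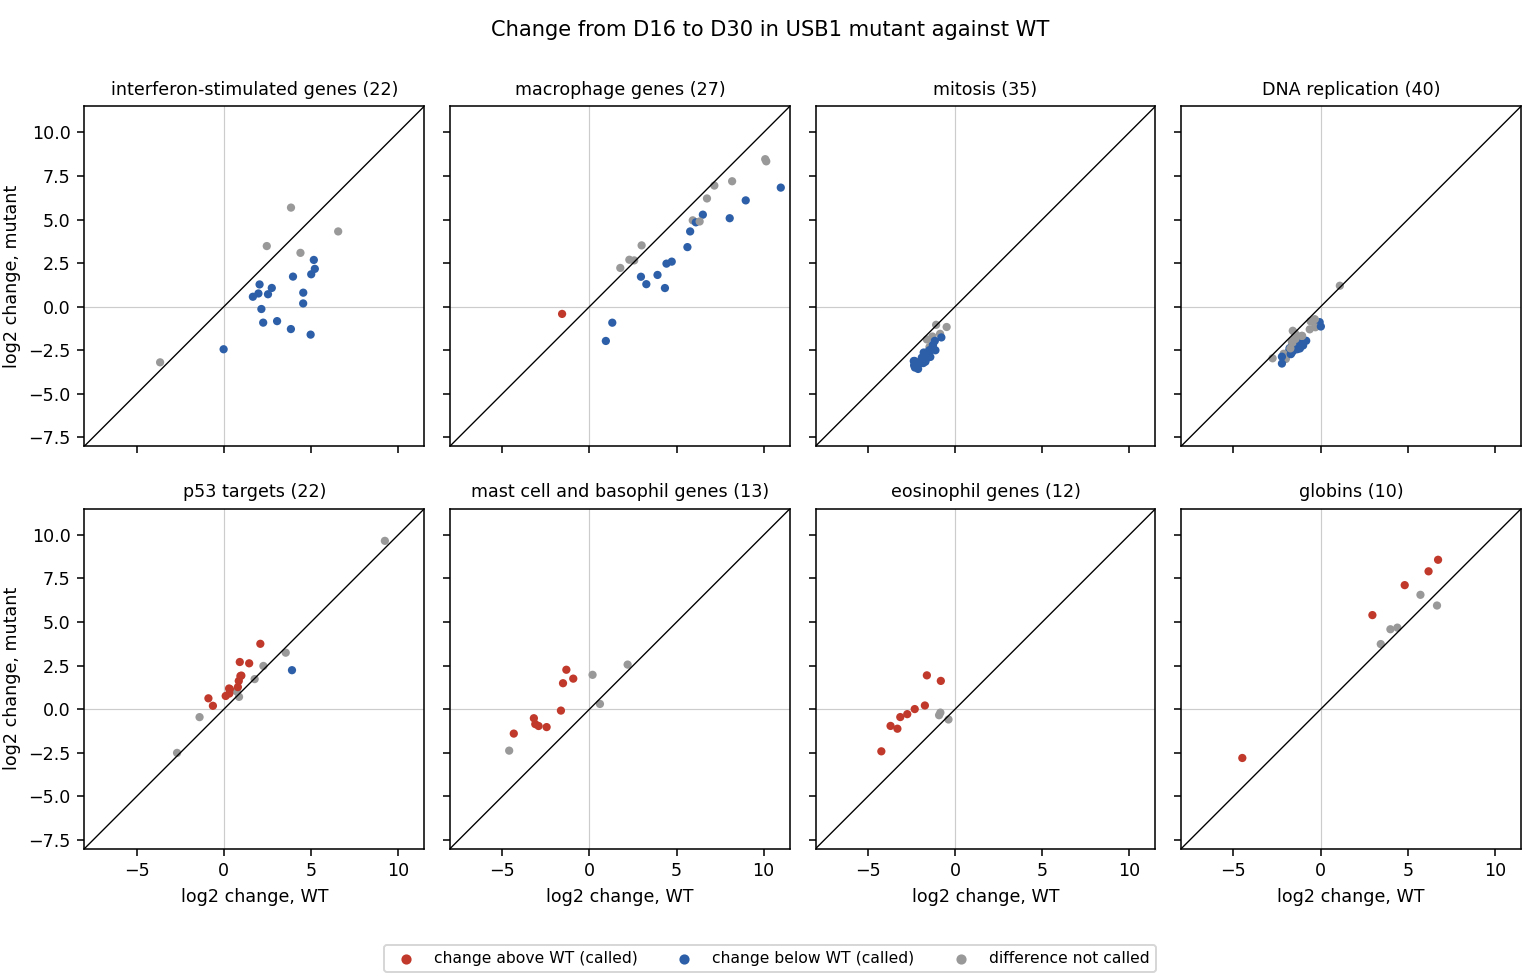
Each point is a tested member of a list (number in brackets), with its log2 change from D16 to D30 in WT on the x axis and in USB1 mutant on the y axis. Points on the diagonal changed alike; red points were called above it, blue points below it, and 29 of 35 mitosis genes and 17 of 22 interferon-stimulated genes lay called below it.

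Interferon-stimulated genes rose less in mutant than in WT cells. The mutant change was below the WT change in 17 of 22 tested members and above it in none (1 without mutant D16 replicate 3), with medians of 0.78 in mutant and 3.45 in WT, and 15 to 18 were called below under every alternative. MX1 went from 7.59 ± 1.1 to 178 ± 40.6 CPM in WT (n = 3 per day) and was not called in mutant (−4.37 ± 0.38, padj = 1.52e-04). IFI6 rose from 12.8 ± 1.77 to 477 ± 34.2 CPM in WT against 11.3 ± 1.01 to 52.2 ± 20.6 CPM in mutant (−3.05 ± 0.35, padj = 6.50e-04). Both genes were at a like level in the genotypes at D16, and OAS1 followed (−2.48 ± 0.46, padj = 0.00554).

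Proliferation genes fell further in mutant cells. The mutant change lay below the WT change in 29 of 35 mitosis genes (medians −2.88 and −1.62) and in 17 of 40 replication genes. KIF11 fell in WT from 111 ± 16.8 to 32.6 ± 2.64 CPM (−1.38 ± 0.22, padj = 0.00269) and BUB1 from 132 ± 26 to 26.7 ± 2.06 CPM (−1.19 ± 0.21, padj = 0.00473), and both were higher in mutant than in WT cells at D16 and lower at D30. With transcript lengths as offsets the counts were 15 and 7, and without WT D16 replicate 1 they were 18 and 8. The replication count also came to 7 without WT D16 replicate 2, to 8 without mutant D16 replicate 1 or WT D30 replicate 1, to 9 without mutant D16 replicate 3 or WT D30 replicate 2, and to 10 without mutant D30 replicate 3. Of the 7 CDK inhibitors 4 had a mutant change above that of WT, CDKN2B (2.51 ± 0.35, padj = 0.00142) and CDKN2A (1.65 ± 0.30, padj = 0.00464) among them, and so did 13 of 22 p53 targets, with 1 below. BBC3 rose in WT from 8.6 ± 0.961 to 36.5 ± 11.8 CPM (1.66 ± 0.36, padj = 0.0129). Without WT D16 replicate 1, 9 p53 targets were called above.

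Macrophage genes rose less in mutant than in WT cells, with 15 of 27 below and 1 above (medians 3.52 and 5.62). VSIG4 went from 0.744 ± 0.352 to 403 ± 46.8 CPM in WT and from 2.32 ± 0.622 to 161 ± 55.1 CPM in mutant (−2.87 ± 0.47, padj = 0.00289). MMP9, a neutrophil and macrophage gelatinase, went from 22.3 ± 3.29 to 1016 ± 85.7 CPM in WT (−2.31 ± 0.23, padj = 4.26e-04), and LPL from 1.03 ± 0.304 to 525 ± 19 CPM (−3.66 ± 0.45, padj = 7.36e-04). For F13A1 the directions were opposite, a change of 0.94 in WT and −1.97 in mutant (−2.91 ± 0.65, padj = 0.0145). OCSTAMP, a fusion protein of osteoclasts and macrophages (−4.43 ± 0.89, padj = 0.00844), and MMP12, macrophage elastase (−4.15 ± 1.14, padj = 0.0345), differed by far, from near 0 at D16 in both genotypes. Monocyte genes were below in 8 of 20, but in 3 to 5 of 20 without WT D16 replicate 1 or 2, any WT D30 library, mutant D16 replicate 3 or mutant D30 replicate 1. Lysosomal genes were below in 8 of 39, but in 5 without WT D16 replicate 1 or 2, WT D30 replicate 1 or 3 or mutant D30 replicate 1, and in 2 with lengths.

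Eosinophil and mast cell genes fell less, or rose, in mutant cells. The mutant change was above the WT change in 9 of 12 eosinophil genes and 9 of 13 mast cell and basophil genes, and below it in none, with WT medians of −2.02 and −1.64. PRG2 fell in WT from 25224 ± 7189.6 to 1941 ± 1243 CPM, against 4456 ± 1087 to 2324 ± 967 CPM in mutant (2.74 ± 0.69, padj = 0.0232). IL1RL1 fell in WT from 616 ± 192 to 30.5 ± 5.54 CPM (2.94 ± 0.48, padj = 0.0029), TPSB2 went from 37.6 ± 22.2 to 13.7 ± 8.04 CPM (3.01 ± 0.60, padj = 0.00837) and ENPP3 from 8.78 ± 2.39 to 3.53 ± 1.0 CPM (3.59 ± 0.44, padj = 7.01e-04). For PRG2, IL1RL1, CLC, IL5RA, ADGRE1, ALOX15, HDC and ENPP3 the mean WT level at D16 was above the mutant level (for CLC 6377 against 1875 CPM). For TPSB2 and TPSAB1 it was below the mutant level. The D30 levels of PRG2 in the genotypes lay within each other's spread. Without WT D16 replicate 1, 5 eosinophil genes were called above. Azurophil granule genes were above in 6 of 14 and below in none (1 without WT D30 replicate 2, 2 without WT D16 replicate 3 or mutant D30 replicate 3). The differences of MPO and ELANE did not pass the test (−2.04 ± 1.03, padj = 0.223 and −4.41 ± 1.8, padj = 0.134).

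Part of the red cell genes had a mutant change above that of WT, 5 of 10 globins and 7 of 27 other red cell genes. HBE1 rose in WT from 112 ± 23.1 to 3174 ± 551 CPM and in mutant from 143 ± 26.1 to 20232 ± 8029 CPM (2.3 ± 0.38, padj = 0.00297), and TRIM58 in WT from 37.5 ± 1.53 to 67.9 ± 30.9 CPM (2.79 ± 0.43, padj = 0.00216). HBQ1 and NFE2 were called above too (2.43 and 1.58), and so was HBD (1.7), which fell in both genotypes and by less in mutant cells. GATA1, not called in mutant cells, fell in WT from 116 ± 4.01 to 37.4 ± 4.76 CPM (1.56 ± 0.23, padj = 0.0019), and KIT fell in WT from 81.2 ± 32.7 to 25.1 ± 14.6 CPM (2.43 ± 0.61, padj = 0.0242). Globins took 1.31 to 1.73% of counts in WT D30 libraries, below the 5.41 to 8.83% of mutant ones.

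Among RNA enzymes, PARN went from 36.5 ± 5.3 to 27.8 ± 5.52 CPM in WT (−0.39) and rose by 1.79 from a lower level in mutant (2.18 ± 0.28, padj = 9.18e-04), so that the genotypes differed at D16 and lay close at D30. The differences of TENT4A and TENT4B did not pass the test (0.03 ± 0.22, padj = 0.948 and 0.02 ± 0.20, padj = 0.972).

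Among genes averaging 10 CPM or more in the 12 libraries, the widest differences with the mutant change above were in SLC27A3, SNX18P3, IGFBP5, C3orf80, ADCYAP1 and TTN. IGFBP5, a binder of insulin-like growth factors, went in WT from 52 ± 14.1 to 4.36 ± 3.15 CPM and measured 10.1, 12.8 and 21.3 CPM at D16 and 28.7, 16.5 and 57.6 CPM at D30 (1.17 ± 0.42, padj = 0.0332) in mutant. ADCYAP1, a neuropeptide, fell in WT from 105 ± 9.83 to 2.75 ± 1.64 CPM against 119, 77.2 and 70.1 to 18.9, 50.5 and 78 CPM in mutant, and TTN, titin, went from 104 ± 29.4 to 8.08 ± 2.0 CPM in WT. On the other side ENTREP3 was at 0 counts in all mutant D30 libraries, at least 112-fold below mutant D16, while WT libraries went from 17.7 ± 0.92 to 10.1 ± 1.32 CPM. SLC27A3 and ENTREP3 lie on the long arm of chromosome 1 and differed in opposite directions. The median difference over 735 genes of this arm was 0.19, with 95 called above and 51 below. Over the other 14757 genes it was −0.05, with 1232 above and 1311 below. Whether the arm bears on either gene was not tested.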

How the data were processed

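RNA-seq of total RNA, depleted of rRNA and made with a directional kit, was measured in 18 libraries, 3 per genotype and day, of which 6 are compared here and 6 WT libraries serve the comparison of changes. The authors trimmed reads with Trimmomatic 0.36 and quantified Ensembl release 99 transcripts with Salmon 0.13.1, and deposited per gene expected counts, TPM and effective lengths in 1 table per day. Deposited expected counts were rounded before testing, and the TPM of the authors were used for shares of globins only. The deposited lengths (other values than expression) entered 1 alternative as offsets. The strand setting is not given in the sources used here, so genes overlapping on opposite strands are uncertain, as are near-identical copies.

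Genes were filtered with filterByExpr, scaled by TMM and tested with edgeR 4.0.16 (R 4.3.3) by the quasi-likelihood test, with Benjamini-Hochberg adjustment over all tested genes and calls at an adjusted p under 0.1. Standard errors are the log2 fold change over the square root of F. CPM used TMM-scaled library sizes. Of 35168 identifiers 35051 matched GENCODE release 44, and the other 117 held 0.238% of counts. Total counts are given with the results, and low counts limit precision in D30 replicate 3. Whether replicates were separate cultures is not stated, and p-values then cover only the spread among these libraries, which may be technical. A fold against a day with 0 counts was bounded by setting that group to a total of 3 counts, a limit for counting error alone.

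The comparison and its 29 gene lists (618 of 621 genes matched) were chosen with earlier results of these data known. Named are USB1, the 10 highest and 10 lowest called changes with a mean of at least 10 CPM and no overlap, for each list up to 4 called members in its main direction and 2 in the other by adjusted p, fixed regulators, and the 6 widest differences between genotypes in each direction, again with a mean of 10 CPM or more. Alternatives were other scalings, count filters, DESeq2 1.42.0, limma 3.58.1, fits over more libraries, the replicate block, length offsets, another threshold and leaving out each library. The procedure was also run on simulated data in which most genes were unchanged. It was therefore not tested under a change as broad as the one seen here. A gene that the naming rule picks is not reported here.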

Additional observations from a re-analysis of the deposited data

Results flagged for a closer look

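The change from D16 to D30 differed between USB1 mutant and WT cells by the test of the difference itself in 78 of the 188 named genes. The values are the mutant log2 change minus the WT log2 change, from edgeR's quasi-likelihood test over 12 libraries. SLC27A3, ENTREP3 and OLFM4 were at 0 counts in all mutant libraries of a day, so the size of their difference depends on the prior count and is no bound.

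Among the named interferon-stimulated genes the mutant change was below the WT change in OAS1 (−2.48), IFI6 (−3.05), IFI35 (−0.77) and IFITM3 (−2.43). Of macrophage, monocyte, lysosomal and NADPH oxidase genes the mutant change was below the WT change in CCR2 (−1.58), ACP5 (−1.23), LGMN (−1.46), VSIG4 (−2.87), F13A1 (−2.91), AXL (−2.23), CTSL (−0.93) and CYBB (−0.88). In eosinophil, mast cell and basophil genes it was above the WT change in IL5RA (1.81), PRG2 (2.74), CLC (2.19), ADGRE1 (2.44), ALOX15 (3.56), ENPP3 (3.59), TPSB2 (3.01), TPSAB1 (2.68), HDC (1.43) and IL1RL1 (2.94). For globins, other red cell genes and iron handling it was above the WT change in FTH1 (1.55), FTL (1.31), HBQ1 (2.43), HBE1 (2.3), HBD (1.7), GYPC (1.36) and TRIM58 (2.79).

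Among replication and mitosis genes it was below the WT change in MCM4 (−1.0), TYMS (−0.65), RRM1 (−0.60), BUB1 (−1.19), KIF11 (−1.38), KIF20A (−1.33) and CCNA2 (−1.02). For CDK inhibitors and p53 targets it was above the WT change in CDKN2B (2.51), CDKN1A (0.92), CDKN2A (1.65), CDKN1B (0.92) and BBC3 (1.66). In the lipid, later neutrophil, megakaryocyte, endothelial and lymphoid lists it was above the WT change in MYLIP (1.91), PLIN2 (1.47), NFE2 (1.58), KDR (1.37) and CD247 (3.49) and below it in MMP9 (−2.31), OLFM4 (−8.14), LPL (−3.66), ITGB3 (−0.80), TIE1 (−1.34), FLT1 (−0.79), NKG7 (−2.27) and IL7R (−1.57). In the progenitor, nucleolar and RNA enzyme lists and the regulators chosen by name it was above the WT change in PARN (2.18), CEBPE (1.61), GATA1 (1.56) and KIT (2.43) and below it in MEIS1 (−1.03), UTP20 (−1.29) and LARP7 (−0.81). Among genes named for the size of a change it was above the WT change in SLC27A3 (9.01), RUNDC3A (2.37), HBA2 (1.84), IGFBP5 (4.82), SNX18P3 (4.79), C3orf80 (4.73), ADCYAP1 (4.36) and TTN (3.94) and below it in DIPK1B (−2.48), CPXM1 (−4.19), GUCY1B1 (−3.41), ENTREP3 (−9.47), OCSTAMP (−4.43), MX1 (−4.37), KCNJ5-AS1 (−4.24), MMP12 (−4.15) and FLOT1 (−4.11).

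In 4 of these genes the change from D16 to D30 had opposite signs in the genotypes and was over 2-fold in each. Their log2 changes in mutant and in WT cells were ALOX15 (1.94 and −1.62), ENPP3 (2.26 and −1.32), TPSB2 (1.49 and −1.52) and IGFBP5 (1.15 and −3.67). ALOX15 measured 9.24 ± 3.45 CPM in mutant and 111 ± 29.5 CPM in WT at D16. At D30 it measured 36.6 ± 11.3 and 35.6 ± 23.6 CPM, so the genotypes differed at D16 and lay close at D30. In ENPP3, TPSB2 and IGFBP5 the D30 mean was higher in mutant than in WT. The mutant days of IGFBP5 overlapped.

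The call was lost under at least 1 alternative in 24 of the 78 genes. It was lost in 11 of 22 alternatives for MEIS1 (padj up to 0.587), in 14 for TYMS, in 13 for IFI35, in 12 for CYBB, in 10 for CCR2 and HBA2, in 8 for ITGB3 and RRM1, in 6 for CEBPE and CD247 and in 1 to 5 for the other 14. The cause was not tested.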

How the results depend on the processing

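The counts of genes called between mutant D30 and D16 stayed within 1.5 times under every alternative, from 9214 to 10400.0 when 1 library was left out. Over the named genes, 2955 gene and alternative pairs kept direction and side of the threshold, 28 lost the call, 8 gained it and 7 turned sign. The sign turned for USB1 (−0.0138 with transcript lengths as offsets, and −0.0434 without D30 replicate 3 to 0.24 without D30 replicate 1), NANOG (−0.47) and XPO5 (0.0703) with lengths, and GATA1 (−0.283 without D30 replicate 1 to 0.0644 without D30 replicate 2). The cause was not tested.

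The difference of mutant and WT changes depended more on the settings. In place of 2689 genes, 1696 were called with lengths, 1647 at an adjusted p under 0.05 and 1553 to 3400.0 when 1 library was left out. Those above numbered 835 at 0.05 and 826 to 1546 without 1 library, and those below 738 with lengths, 812 at 0.05 and 727 to 1854 without 1 library. Over 2-fold, 501 to 1030.0 were below without 1 library. Of the named differences, 128 pairs lost the call and none turned sign.

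Replicate numbers are shared between the days by label only. The deviations of same-numbered libraries from their day's mean correlated at −0.226, −0.116 and 0.0138. With 3 libraries per day these values cannot tell whether same-numbered libraries shared a culture or batch. With the replicate block 9522 genes were called between the days and 2565 differed between the genotypes' changes. Depth limits low genes most in D30 replicate 3.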
